A study of Mus musculus with 2 samples.

Results

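The 10 genes described here encode SR splicing factors and proteins that work beside them, and they were followed through myeloid cells sorted from the mouse cerebral cortex. They are Srsf2, Srsf3, Srsf5, Srsf6 and Srsf7 of the SR family, the SR-like factors Tra2a and Tra2b, the kinase gene Clk1, Luc7l2 and Cwc22. All 10 were found by symbol among the 55357 genes of the count tables. They were chosen by name with their CPM levels in these libraries, by cell class and depth, already known, so the differences in their levels between libraries, cell classes and depths are a description and carry no test. The study compared CD45+CD11b+ cortical cells of 8-week-old Msn knockout (KO) mice, which lack moesin, with those of wild-type (WT) mice. Moesin ties the plasma membrane to the actin cortex. The KO mice were of the C57BL/6 background. The labels name no strain for the WT mice, no sex, and no part of Msn as the deleted one. Each genotype was 1 droplet library of cells pooled from 5 to 6 mice, so genotype, pool, sort and library cannot be told apart.

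SR proteins bind exonic sequences through RNA recognition motifs and recruit the spliceosome through a domain rich in arginine and serine. Kinases such as Clk1 phosphorylate that domain and so set where SR proteins sit in the nucleus and how they act. Many SR genes control their own output by splicing in a so-called poison exon, which carries a premature stop codon and sends the transcript to nonsense-mediated decay (NMD), or by keeping an intron in a transcript held in the nucleus.

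All 10 genes have at least 1 transcript annotated as an NMD target in GENCODE, against 81.3% of 8248 measured protein-coding genes, and 9 of the 10, all but Cwc22, have a transcript annotated with a retained intron, against 65.1%. For 8 of the 10 genes, that is all but Cwc22 and Srsf2, an internal exon was found in which an NMD transcript has its stop codon. Only these 10 genes were searched, so no share of other genes stands beside that count. For Srsf6 and Clk1 the exon rests on 1 NMD transcript, and the Luc7l2 exon is also in 1 protein-coding transcript. Such exons are shown because most of the 10 genes have them and the choice of genes did not use them. Whether they are commoner here than in other genes was not tested. The 5 shown here run in the direction of the transcript (GRCm39 sequence, GENCODE M39 annotation). Each goes from the first base of the exon to the premature stop codon, which is in capitals. No transcript annotated as protein-coding has an exon with the same start and end as any of the 5. Coding exons with other boundaries were not compared.
Srsf3, chr17:29258428-29258461, plus strand: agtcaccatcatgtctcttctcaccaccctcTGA
Srsf5, chr12:80994903-80994953, plus strand: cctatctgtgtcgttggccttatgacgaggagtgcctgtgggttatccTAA
Srsf7, chr17:80512483-80512510, minus strand: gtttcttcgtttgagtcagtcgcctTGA
Tra2a, chr6:49229899-49230042, minus strand: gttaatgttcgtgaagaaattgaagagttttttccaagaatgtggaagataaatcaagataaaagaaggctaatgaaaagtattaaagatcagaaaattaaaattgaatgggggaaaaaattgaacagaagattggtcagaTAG
Tra2b, chr16:22077931-22078011, minus strand: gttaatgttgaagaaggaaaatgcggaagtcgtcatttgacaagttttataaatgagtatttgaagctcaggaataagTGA
The exons of the paralogs Tra2a and Tra2b open with the same 9 bases, gttaatgtt, and differ after that. The counts come from tags near the 3′ end of transcripts and are summed per gene, so they do not tell apart transcripts with and without these exons. Each value below is the gene's total RNA, and whether the exons were used more or less in either library was not analysed here.

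The KO library held 9038 barcodes and 67575835 UMIs (unique molecular identifiers, the count of captured RNA molecules), and the WT library 5842 barcodes and 68576464 UMIs, with 13 barcodes in common (0.144% and 0.223%). With at least 500 genes and at most 10% mitochondrially encoded UMIs, 7573 KO and 5577 WT cells were kept. Cells with a UMI of both P2ry12 and Tmem119 that met neither other gate were called microglia, 4481 KO and 4972 WT cells. Monocytes, with Ace or Ly6c2, were 631 KO and 42 WT cells, and border macrophages (macrophages of the meninges and vessels), with Mrc1 and Pf4, were 92 KO and 18 WT cells, both with at most 1 UMI of P2ry12 and Tmem119 together. Summed over the 8 microglia markers, the microglia stood at 17654 CPM in the KO and 17145 CPM in the WT library, where CPM is the UMIs of a gene per 1000000 UMIs summed over the cells. Msn, the deleted gene, stood at 20.5 CPM in KO microglia (19.0 to 22.0, exact 95% Poisson interval) and 320.1 CPM in WT microglia. Every interval below is 95% and exact (Poisson for a CPM, conditional for a ratio, binomial for a share) and covers counting error only.

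In microglia, 9 of the 10 genes were lower in the KO library on the CPM scale, Cwc22 by far the most, and Tra2b was slightly higher. Most measured genes were lower on that scale too, as their median ratio below shows, and their exact share was not counted. Cwc22, Srsf5, Srsf6, Luc7l2 and Tra2a were at least 1.5-fold lower, and none was 1.5-fold higher. The background for that count is wide, since 30.3% of the 8726 measured genes (those that reached 10 CPM in either library) were at least 1.5-fold lower and 4.65% at least 1.5-fold higher, with a median log2 ratio of KO over WT of −0.29. Relative to that median gene, 7 of the 10 were below 0, as were 4363 of the 8726 measured genes. Only Cwc22 of the 10 was at least 1.5-fold lower on that scale, beside 12.4% of measured genes, and the other 9 lay within 1.5-fold. The median log2 ratio of the 10 was −0.55 in CPM and −0.25 when set against the median gene.

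Cwc22 encodes a spliceosome protein that brings the exon junction complex core factor eIF4A3 to spliced RNA (chromosome 2, 77711503 to 77776736, minus strand). It stood at 84.4 CPM in KO microglia (81.4 to 87.6, 2926 UMIs) and 347.6 CPM in WT microglia (342.8 to 352.4, 20493 UMIs), a 4.12-fold lower level and a log2 ratio of −2.04 (−2.10 to −1.99). Relative to the median gene the log2 ratio was −1.75, and 0.481% of measured genes had a lower one. No other gene of the 10 came near that difference. Among the 10 nearest measured genes on its chromosome, spread over 8 megabases, the log2 ratios relative to the median gene ran between −0.85 for Agps and 0.93 for Fkbp7 with a median of 0.21, and 1 of these 10 neighbours was at least 1.5-fold lower. The nearest measured neighbours, Plekha3 and Ube2e3, stood at 0.03 and 0.76. Mouse has 7 annotated retrocopies of the gene, Cwc22rt1 to Cwc22rt7, 97.7% identical to its transcript over 2496 bases, and all 7 were at 0 UMIs in the microglia of both libraries. Reads that fit several genes are the ones such copies could take away, and how the authors' counting treated them is not given in the sources used here.

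Of the SR family genes, Srsf5 and Srsf6 were the lower ones, Srsf3 stood between, and Srsf2 and Srsf7 were nearly level. Srsf5, a shuttling SR protein (chromosome 12, 80986436 to 80997630), had 666 CPM in KO and 1199 CPM in WT microglia, a log2 ratio of −0.85 (−0.87 to −0.83). Srsf6 (chromosome 2, 162773299 to 162780234) had 131 CPM in KO and 219.6 CPM in WT microglia, or −0.74 (−0.79 to −0.69). Srsf3, the smallest SR protein and a factor that also couples RNA processing to export (chromosome 17, 29251321 to 29262347), had 285 CPM in KO and 398 CPM in WT microglia, or −0.48 (−0.52 to −0.45). These 3 lay below the median gene too, at −0.55, −0.45 and −0.19 relative to it. Srsf2, an SR protein that stays in the nucleus (chromosome 11, 116740723 to 116744518), had 369 CPM in KO and 394 CPM in WT microglia, or −0.09 (−0.12 to −0.06). Srsf7, an export adaptor like Srsf3 (chromosome 17, 80507501 to 80514879), had 391 CPM in KO and 406 CPM in WT microglia, or −0.06 (−0.09 to −0.03). Both therefore lay above the median gene, at 0.20 and 0.24, so that the sign of their difference turns with the scale.

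The paralogs Tra2a and Tra2b, which activate exons by binding purine-rich enhancers, went opposite ways. Tra2a (chromosome 6, 49220793 to 49241017) had 333 CPM in KO and 509.7 CPM in WT microglia, a log2 ratio of −0.61 (−0.64 to −0.58), or −0.32 when set against the median gene. Tra2b (chromosome 16, 22063266 to 22084824) had 958 CPM in KO and 884 CPM in WT microglia, or 0.12 (0.10 to 0.14) and 0.41. Tra2b was the one gene of the 10 whose CPM interval for the ratio lay above 0 in microglia. Luc7l2, a relative of a yeast protein of the U1 snRNP that helps choose 5′ splice sites (chromosome 6, 38528269 to 38586722), had 469.5 CPM in KO and 776 CPM in WT microglia, or −0.73 (−0.75 to −0.70) and −0.43. Clk1 (chromosome 1, 58449348 to 58463234) had 515.5 CPM in KO and 711 CPM in WT microglia, or −0.46 (−0.49 to −0.44) and −0.17. With only 2 libraries, these small differences in opposite directions have no replicate spread to be set against.

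**Figure D1:**
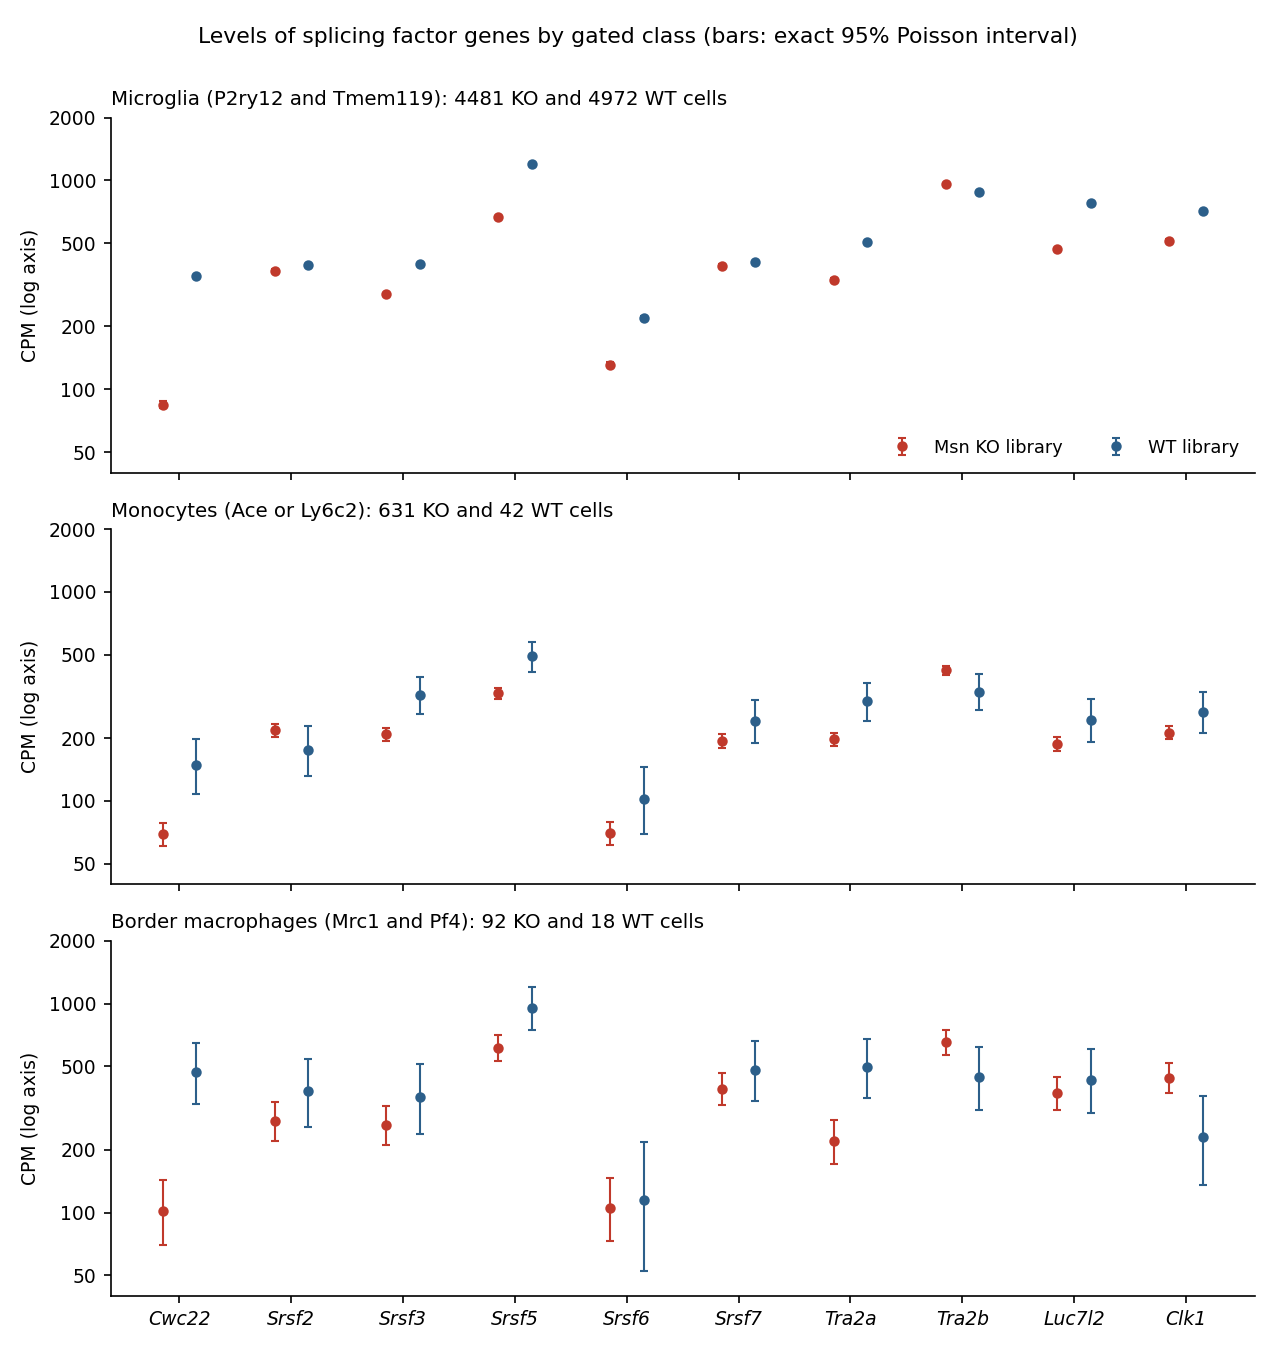
Level of each gene in CPM on a log axis, with the KO library (red) left of the WT library (blue) in microglia, monocytes and border macrophages, points for the summed cells and bars for the exact 95% Poisson interval. Cwc22 was lower in the KO library in all 3 classes, at 84.4 against 347.6 CPM in microglia, while Tra2b was higher in all 3, and intervals are widest for the 18 WT border macrophages.

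The share of cells with a UMI, which at a fixed number of UMIs largely follows from the mean level, was compared as well. With each cell thinned at random to 2000 UMIs, which left 4138 KO and 4836 WT microglia (343 and 136 shallower cells left out), 15.2% of KO microglia (14.1 to 16.3) and 50% of WT microglia (48.6 to 51.5) had a Cwc22 UMI. Without thinning the shares were 40.8% in the KO and 88.1% in the WT library. For 8 of the 10 genes the thinned share was lower in the KO library with intervals that did not overlap, as it was for 44.5% of measured genes, although for Srsf7, at 51.2% (49.6 to 52.7) in KO and 54.2% (52.8 to 55.6) in WT microglia, they nearly touched. For Srsf5 the shares were 70.3% in KO and 89.5% in WT microglia, and for Luc7l2 57.9% and 76.3%. Srsf2, at 50.9% (49.4 to 52.5) in KO and 53.0% (51.6 to 54.4) in WT microglia, and Tra2b, at 80.7% (79.5 to 81.9) and 79.2% (78.1 to 80.4), had overlapping intervals.

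**Figure D2:**
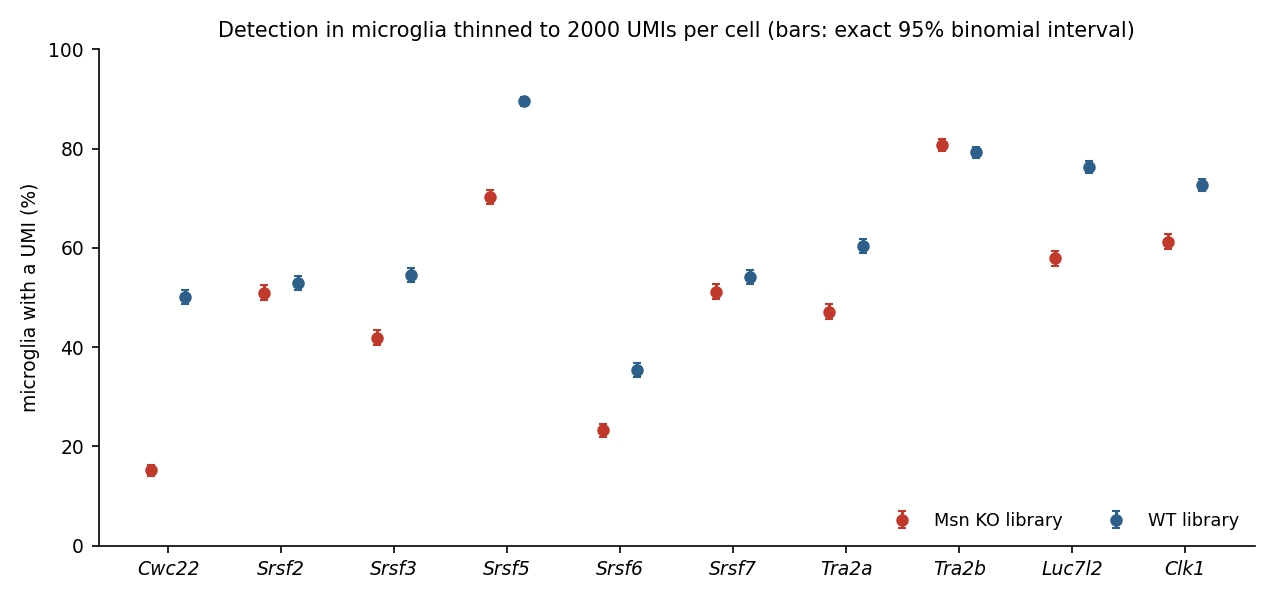
Share of microglia with at least 1 UMI of each gene after thinning every cell to 2000 UMIs, KO library (red) left of WT library (blue), with exact 95% binomial intervals over 4138 KO and 4836 WT cells. The gap is widest for Cwc22, at 15.2% in KO and 50% in WT microglia, and Tra2b and Srsf2 overlap.

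Free RNA in the droplets could place UMIs in cells that do not make a transcript. Siglech, a microglial gene that monocytes should lack, was seen in 7.38% of KO and 15% of WT monocytes thinned the same way (596 KO and 40 WT cells, median depths before thinning of 5201 and 6663.5 UMIs over all monocytes), at 3.39% and 3.42% of its microglial level. In thinned border macrophages, which should also lack it, Siglech was seen in 16.1% of KO cells (8.02 to 27.7, 62 cells) and 13.3% of WT cells (1.66 to 40.5, 15 cells), at 11.5% and 9.87% of its microglial level. Cwc22 in KO microglia, at 15.2%, lay above the Siglech share of KO monocytes but not above that of KO border macrophages. Siglech is another gene, at 968 CPM in KO microglia, so its shares set no background level for Cwc22. The border macrophages of the KO library also held 3232 CPM of the 8 microglia markers, so mixed cells and free RNA cannot be told apart there. What part free RNA has in the Cwc22 share was not tested. The thinned shares of the other 9 genes in KO microglia, and of all 10 in WT microglia, lay above both Siglech shares of their library. Srsf6, however, at 23.3% in KO and 35.4% in WT microglia, lay inside the Siglech intervals of border macrophages. Markers of other cells were also unequal in the microglial sums. The 4 NK cell markers summed to 70.9 CPM in KO and 0.102 CPM in WT microglia, the 4 neutrophil markers to 179.7 and 14.0 CPM, the 4 erythroid markers to 463 and 89.3 CPM, and the 7 border macrophage markers, all 7 detected in both libraries, to 62.5 and 31.0 CPM. Mitochondrially encoded RNA summed to 5034 CPM in KO and 14436 CPM in WT microglia. What part these differences have in the levels of the 10 genes was not tested beyond the alternatives given in the closing section.

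In bulk sums of a class, a lower level can mean fewer cells with the RNA or less RNA per cell. In monocytes, Cwc22, Srsf3, Tra2a and Srsf5 were at least 1.5-fold lower in the KO library on the CPM scale, 4 of the 10 genes, and 30.7% of 7658 measured genes were as well. Cwc22 stood at 69.3 CPM (61.0 to 78.5) in KO and 148.5 CPM (108 to 199) in WT monocytes, a log2 ratio of −1.10 (−1.56 to −0.61). That is a smaller difference than in microglia, with intervals that did not overlap, though the WT value rests on 45 UMIs in 42 cells. Among monocytes without any P2ry12 or Tmem119 UMI, the calls of Srsf3 (−0.56) and Srsf5 (−0.36) were lost, Cwc22 stood at −1.21 and Tra2a at −0.59, and Srsf6 passed the rule at −0.75. Tra2b had 423 CPM in KO and 333 CPM in WT monocytes (0.34, 0.05 to 0.65), and was again the gene whose interval lay above 0. Srsf2 had 218 CPM in KO and 175 CPM in WT monocytes, with an interval of the log2 ratio that held 0 (−0.08 to 0.75). Markers of other cells moved with genotype in this class too, at 778 CPM in KO and 3.30 CPM in WT monocytes for the 4 NK cell markers, 2038 and 970 CPM for the 4 neutrophil markers, and 598 and 0 CPM for the 3 choroid plexus markers; their part in these ratios was not tested.

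Border macrophages were few, and 18 WT cells with 78641 UMIs set the width of every interval. Cwc22 stood at 102 CPM (70.1 to 143) in KO and 470.5 CPM (331 to 648.5) in WT border macrophages, from 33 and 37 UMIs, a log2 ratio of −2.21 (−2.93 to −1.49). Tra2a had 219 CPM in KO and 496 CPM in WT cells (−1.18, −1.76 to −0.58), and Srsf5 614 and 954 CPM (−0.63, −1.03 to −0.23). Clk1 went the other way, with 441.5 CPM in KO and 229 CPM in WT border macrophages (0.95, 0.24 to 1.74), the WT value resting on 18 UMIs, and Tra2b had 654.5 and 445 CPM (0.56, 0.04 to 1.12). So 3 of the 10 genes were at least 1.5-fold lower and 1 higher, in a class where 42.5% of 9575 measured genes were lower and 23.8% higher by that rule. Without any cell that held a P2ry12 or Tmem119 UMI (35 KO and 8 WT cells), Cwc22 stayed lower at −2.54, but the calls of Tra2a (−0.20) and Srsf5 (−0.34) were lost. Clk1 stood at 2.00 there, Tra2b passed 1.5-fold higher at 0.78, and Srsf2 turned to 1.27, against −0.47 over all the border macrophages. Srsf6 had no UMI in those WT cells and so no finite ratio. With 2 UMIs of Mrc1 and of Pf4 (58 KO and 16 WT cells), Srsf5 at −0.54 was also within 1.5-fold, and Tra2b at 0.61 was past it.

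Markers and RNA quality moved with genotype in border macrophages as well. The 4 NK cell markers summed to 262.4 CPM in KO cells, and all 4 were at 0 in WT cells. The 8 microglia markers summed to 3232 CPM in KO and 2276 CPM in WT cells, with Sall1 at 0 in WT cells, and mitochondrially encoded RNA to 6681 CPM in KO and 23995 CPM in WT cells. Their part in these ratios was not tested.

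Across the classes, monocytes had the lowest level of all 10 genes in the KO library, and of 9 of the 10 in the WT library, where Clk1 was lowest in border macrophages. How many of all measured genes were lowest in monocytes or highest in microglia was not counted. In monocytes over microglia, 8 of the 10 genes were at least 1.5-fold lower within the KO library (41.7% of measured genes were) and 9 of 10 within the WT library (45.4%). The median log2 ratio of the 10 was −0.96 in the KO and −1.20 in the WT library, beside −0.36 and −0.44 over all measured genes. Ribosomal protein RNA summed to 172545 CPM in monocytes and 68591 CPM in microglia of the KO library. In the WT library the sums were 141819 and 47220 CPM. Its part in these ratios was not tested. Luc7l2 differed most, with 187.5 CPM in KO monocytes against 469.5 CPM in KO microglia (−1.32), and 244 CPM in WT monocytes against 776 CPM in WT microglia (−1.67). Clk1 (−1.28 in the KO and −1.41 in the WT library) and Tra2b (−1.18 and −1.41) came next. The exceptions were Srsf3 in both libraries (−0.45 in the KO and −0.31 in the WT library) and, in the KO library, Cwc22 (−0.28), which is the gene already low in KO microglia. The highest class was microglia for 8 of the 10 genes and border macrophages for Cwc22 and Srsf7, in both libraries alike. That order is not firm throughout, since the intervals of the highest and the middle class overlapped for 6 of the 10 genes in the KO and 7 of the 10 in the WT library, Cwc22 and Srsf7 among them. The intervals of the middle and the lowest class overlapped for 4 of the 10 genes in the KO and 6 of the 10 in the WT library, among them Clk1 in the WT library.

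Monocytes with Ace and without Ly6c2 (357 KO cells, median 4564 UMIs) were set against those with Ly6c2 and without Ace (136 KO cells, median 7795 UMIs). The former gate was meant for the patrolling and the latter for the classical kind, but neither subset was checked with further markers. How the NK cell and neutrophil markers of KO monocytes divided between these subsets was not measured. The log2 ratios were within 1.5-fold for 9 of the genes in the KO library. Clk1 was past it, with 257.5 CPM in Ace and 156 CPM in Ly6c2 monocytes, a log2 ratio of 0.72 (0.45 to 1.00), the 1 gene of the 10 past 1.5-fold, beside 20.7% of measured genes. The log2 ratios of the other 9 lay between −0.28 (Srsf3) and 0.33 (Cwc22). In the WT library, with 18 and 17 such cells, Clk1 stood at 0.31 with an interval that held 0 (−0.43 to 1.03). There 4 of the 10 genes were at least 1.5-fold higher in Ace monocytes, beside 43.9% of measured genes, and 1 lower, beside 26.2%. Of these, Tra2a (0.89, 0.16 to 1.62) and Srsf5 (0.81, 0.28 to 1.33) had intervals above 0, and those of Luc7l2 (0.71), Srsf2 (0.68) and Srsf6 (−0.63) held 0.

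Cells left out by the gates held the 10 genes too. Among the 1232 KO and 303 WT cells that met several gates, with median depths of 14521 and 21462 UMIs, Cwc22 stood at 66.8 CPM in KO and 293.4 CPM in WT cells, a log2 ratio of −2.13 (−2.22 to −2.05). There 6 of the 10 genes were at least 1.5-fold lower in the KO library, Clk1 (−0.61) beside the 5 that were lower in microglia, and 34.3% of 8874 measured genes were. Tra2b was level there, at 824.5 CPM in KO and 825.6 CPM in WT cells. Among the 1137 KO and 242 WT cells that met no gate, with median depths of 1048 and 1350 UMIs, Cwc22 stood at 102.1 CPM in KO and 540.6 CPM in WT cells (−2.40, −2.66 to −2.15), and 3 of the 10 genes were lower by that rule, beside 31.6% of 9498 measured genes. Barcodes under 500 genes, removed before every other comparison, had 3 of the 10 genes at least 1.5-fold higher in the KO library, Tra2b, Srsf7 and Clk1, and Cwc22 lower, while 23.5% of 9180 measured genes were higher and 31.2% lower.

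Levels went with the depth of the cell for some of the genes. Microglia were split by their UMIs into 5 bins (under 2000, 2000 and up, 4000 and up, 8000 and up, and 16000 or more). Cwc22 had 139.6, 91.9, 88.9, 82.1 and 77.4 CPM over these bins in the KO library, and 709, 449, 372, 359.5 and 327 CPM in the WT library. It was thus highest in the shallowest cells of both libraries, and the log2 ratio of KO over WT stayed between −2.35 and −2.07 in every bin. Cells under 2000 UMIs over cells of 16000 or more gave a log2 ratio for Cwc22 of 0.85 in the KO and 1.12 in the WT library. Luc7l2 and Tra2a were also at least 1.5-fold higher in the shallowest KO cells (0.87 and 0.69), which made 3 of the 10 genes in the KO library, beside 25.3% of measured genes, and 1 of the 10 in the WT library, beside 23.6%. In the WT library Luc7l2 stood at 0.36 (0.14 to 0.56) and Tra2a at 0.08 (−0.21 to 0.37). Srsf7, Tra2b and Clk1 were within 1.5-fold but had intervals above 0 in both libraries. Between these end bins Srsf5 (−0.07 in both libraries), Srsf2 and Srsf6 had intervals that held 0. In the next bin, of 2000 UMIs and up, over that of 16000 or more, Srsf5 (−0.25, −0.34 to −0.16) and Srsf6 (−0.32, −0.53 to −0.12) were lower in the KO library. Their levels thus did not go 1 way with depth there. Srsf3 (−0.25) and Tra2b (−0.21) were lower in that library too, while Cwc22 and Srsf7 were higher, all with intervals clear of 0. Luc7l2 (−0.04) and Tra2a (0.04) had intervals that held 0. In the WT library Srsf5 stood at −0.06 (−0.14 to 0.02) and Srsf6 at −0.20 (−0.40 to −0.01).

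Mitochondrially encoded RNA and the nuclear RNA Malat1 were highest in the shallowest cells as well. Malat1 stood at 52801 CPM in KO and 64597 CPM in WT microglia under 2000 UMIs, against 29891 and 34190 CPM in those of 16000 or more; whether this bears on the depth pattern of Cwc22, Luc7l2 and Tra2a was not tested. On the CPM scale, Cwc22, Srsf5 and Srsf6 were at least 1.5-fold lower in the KO library in each of the 5 bins, while 34.8%, 34.1%, 28.4%, 30.4% and 31.7% of measured genes were in the single bins, shallowest first. Centred on the median gene within each bin, Cwc22 alone was, and the background in the single bins was 26.8%, 19.3%, 12.8%, 13.2% and 13%. How many measured genes were lower in all 5 bins at once was not counted on either scale. Tra2b was above 0 in all 5 bins, between 0.09 and 0.30. Tra2a changed most with depth. Its log2 ratio of KO over WT was 0.00 under 2000 UMIs, where it had 552 CPM in KO and 551 CPM in WT cells, and lay between −0.65 and −0.60 in the 4 deeper bins.

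**Figure D3:**
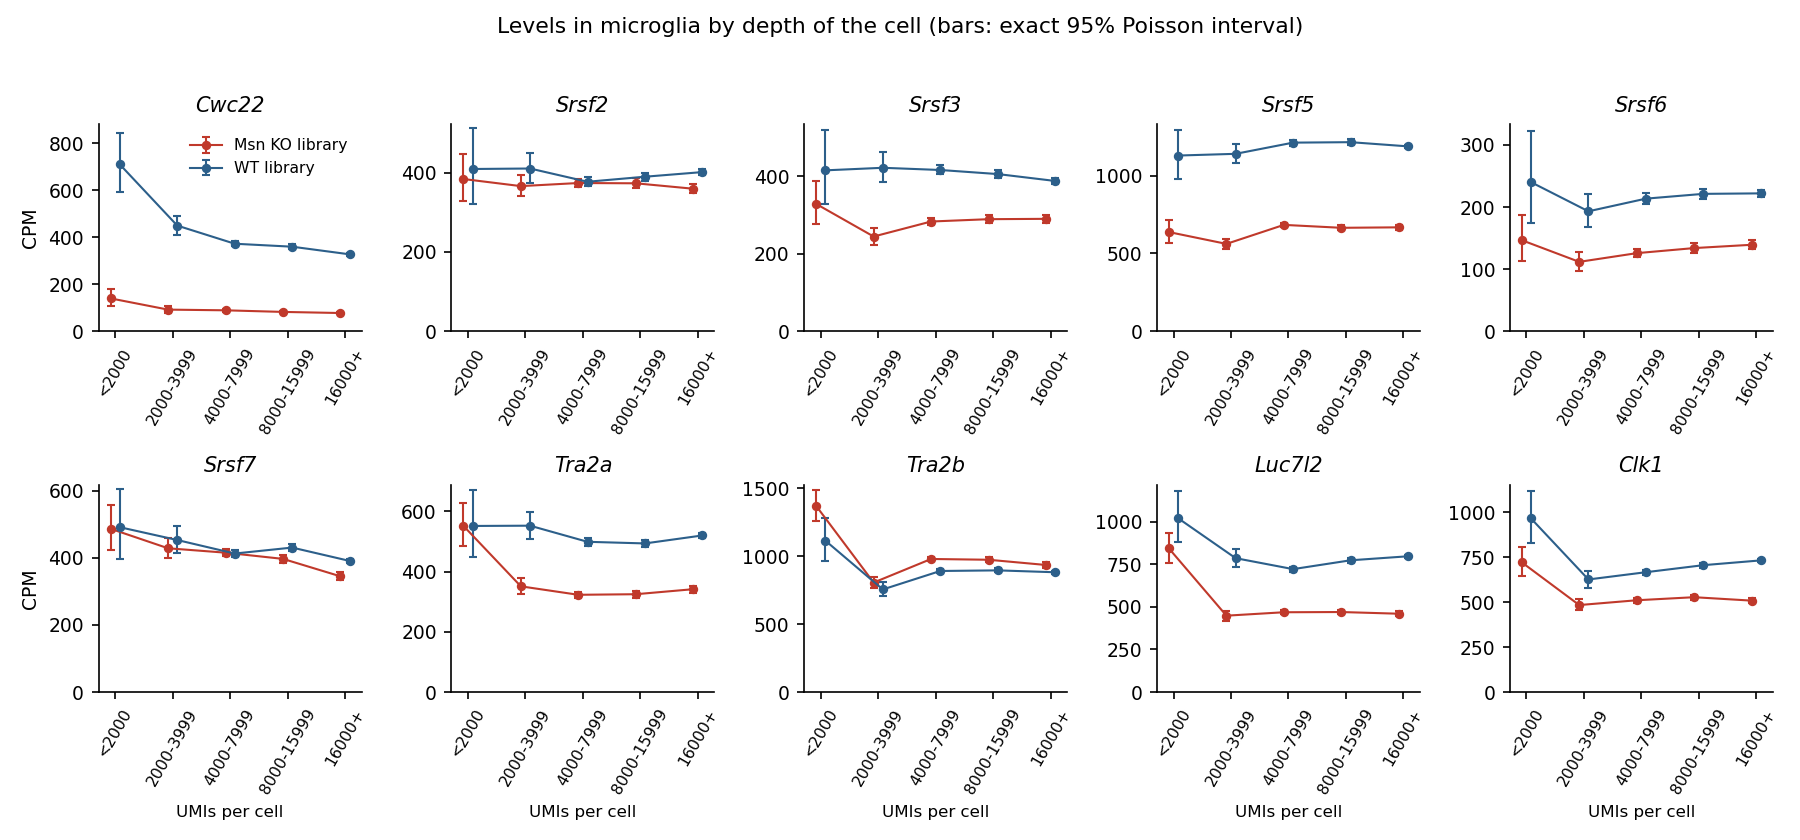
Level of each gene in microglia in CPM against UMIs per cell in 5 bins, KO library (red) and WT library (blue), with exact 95% Poisson intervals and an axis from 0. Cwc22 is highest in cells under 2000 UMIs, at 139.6 CPM in the KO and 709 CPM in the WT library, and the KO values stay below the WT values in every bin for Cwc22, Srsf2, Srsf3, Srsf5, Srsf6, Luc7l2 and Clk1, by at least 1.5-fold in every bin for Cwc22, Srsf5 and Srsf6.

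Within microglia of 1 library, the genes varied from cell to cell little more than other genes of like level, with Srsf7 as the exception. After thinning to 2000 UMIs, the variance of Srsf7 over cells was 1.60 times its mean in KO and 1.25 times in WT microglia, where the median of genes of like mean was 1.09 and 1.08. For the other 9 genes the ratio ran between 0.99 and 1.28 and lay close to the median of like genes, in both libraries. The 10 cells with most UMIs of a gene held between 1.35% and 2.63% of its UMIs, so no level rested on a few cells. Correlations between pairs of the 10 genes were taken over these 4138 KO and 4836 WT cells. The median r was 0.03 in the KO and 0.02 in the WT library. The highest was 0.12 in the KO (Srsf7 with Tra2b) and 0.07 in the WT library (Srsf5 with Tra2b). Counts this sparse keep r low, so these values do not tell whether the genes vary together.

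Cells richer in immediate early gene RNA, the first transcripts to rise after a stimulus, had more RNA of most of the 10 genes. Microglia of at least 2000 UMIs were ranked within each library by the summed share of Fos, Fosb, Jun, Junb, Egr1, Atf3 and Dusp1, a list of 7 genes picked after the data had been seen, split into 3 equal groups, and the richest group was set against the poorest (1379 cells each in the KO and 1612 in the WT library). Srsf7 had 466 CPM in the rich and 304 CPM in the poor group of KO microglia, a log2 ratio of 0.62 (0.55 to 0.68), and 446 and 373 CPM in WT microglia (0.26, 0.21 to 0.31). Tra2b had 1072 CPM in the rich and 787 CPM in the poor group of KO microglia (0.45), and 975 and 750.4 CPM in WT microglia (0.38). Clk1 (0.42 in the KO and 0.32 in the WT library) and Srsf5 (0.42 and 0.26) followed. All 10 ratios were above 0 in the KO library, where 42.8% of measured genes were, and 9 of 10 in the WT library, where 39.5% were, with Cwc22 at −0.03 (−0.08 to 0.03). The median of the 10 was 0.25 and 0.17 beside −0.03 and −0.04 over all measured genes.

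Past the 1.5-fold rule, however, stood only Srsf7 in the KO library, where 0.852% of 7979 measured genes were that much higher, and none of the 10 in the WT library, where 0.593% of 8770 were. Cells of the rich group were deeper, with a median of 5754 UMIs against 5235 UMIs in the poor group of the KO library and 8912 against 5873 UMIs in the WT library. Among microglia of 4000 and more but under 8000 UMIs, where the medians were 5253 and 5424 UMIs in the KO and 5335 and 5432 UMIs in the WT library, all 10 ratios were above 0 in both libraries, as were those of 38.3% of measured genes in the KO and 36.6% in the WT library. The median of the 10 there was 0.21 in the KO and 0.23 in the WT library, beside −0.07 over all measured genes in each. Srsf7 then stood at 0.77 in the KO and 0.40 in the WT library, Tra2b at 0.42 and 0.54, Srsf5 at 0.45 and 0.44, and Clk1 at 0.37 and 0.40, whereas Cwc22 stood at 0.04 and 0.12. These are cells of 1 pool per genotype, so they are not replicates, and the papain digestion before sorting is shared by both libraries.

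**Figure D4:**
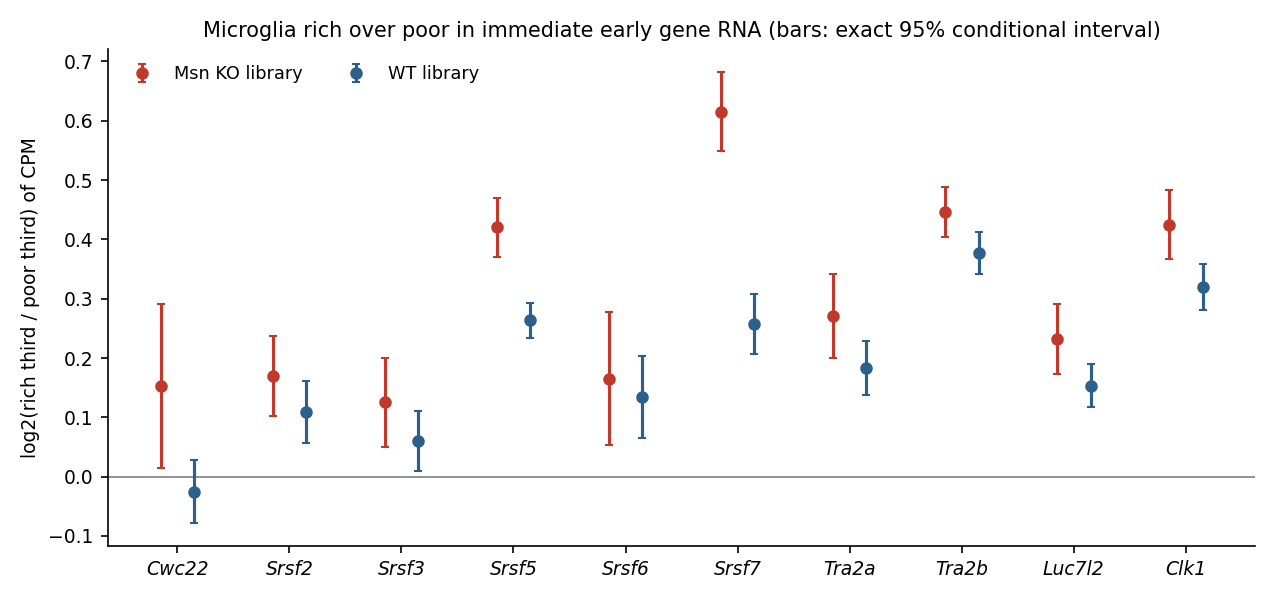
Log2 ratio of CPM between the microglia richest and those poorest in 7 immediate early genes, within the KO library (red) and within the WT library (blue), with exact 95% conditional intervals. Srsf7 in the KO library is highest at 0.62, Tra2b, Clk1 and Srsf5 are above 0.2 in both libraries, and Cwc22 in the WT library lies at −0.03.

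The other genes of the splicing machinery were read from lists that were not picked for how they moved, although with earlier results known, and their values here are log2 ratios of KO over WT in microglia relative to the median gene. Of the 5 other SR genes measured, Srsf9 was at least 1.5-fold higher (0.69, at 265 CPM in KO and 201.5 CPM in WT microglia) and none lower, with Srsf1, the founding SR protein, at −0.30 and a list median of 0.10. Of 18 SR-related and coactivator genes, 1 was lower, Pnisr (−0.65, at 153 and 293.5 CPM), with a median of −0.17, whereas 5 of the 18 were lower on the CPM scale. Of 10 kinase and phosphatase genes, 2 were higher, the protein phosphatase 1 genes Ppp1ca (0.99, at 266 and 164 CPM) and Ppp1cc (0.78), and none lower. Clk2, a kinase of the same family as Clk1, stood at −0.27, and Dyrk1a, another kinase of splicing factors, at −0.36. The list of Luc7-like and U1 snRNP genes had 1 lower gene of 9, Prpf39 (−0.62), with Luc7l at 0.28. The genes nearest in kind to the 10 thus did not share 1 direction.

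For the exon junction complex and NMD, 1 of 13 genes was lower, the NMD kinase gene Smg1 (−0.85, at 67.4 CPM in KO and 149 CPM in WT microglia), whereas 4 of the 13 were on the CPM scale. Eif4a3, whose protein Cwc22 escorts, stood at 0.55 (93.2 and 78.3 CPM), and Magoh, a partner in that complex, at 0.47. None of 20 hnRNP genes, whose proteins often oppose SR proteins at exons, was past 1.5-fold relative to the median gene, while 8 of the 20 were lower on the CPM scale; Hnrnph1 was lowest at −0.52 and Hnrnph2 highest at 0.36. Of 23 core spliceosome genes 5 were higher, with U2af1 (1.01) and Sf3b5 (0.89) the highest, and 1 lower, Snrnp200 (−0.59). All 7 Sm genes measured, which encode the ring on spliceosomal RNAs, were higher relative to the median gene (median 0.72, Snrpf 0.96), whereas on the CPM scale 1 of the 7 was. Of 4 nuclear noncoding RNAs 3 were lower, Neat1 (−1.27), Kcnq1ot1 (−1.23) and the minor spliceosome RNA Rnu11 (−1.42), and Malat1 stood at 0.16. Of 12 dissociation and stress genes, 8 were higher and none lower, with Hspa1b (2.51) and Hspa1a (2.31) the highest. Egr1 (−0.34) and Fosb (−0.03) were the lowest, and on the CPM scale 6 of the 12 were higher and 1 lower. Much of the stress RNA, though not all, thus moved with genotype beside the splicing genes. Without cells that held an Hspa1a or Hspa1b UMI (1562 KO and 2780 WT microglia kept), Cwc22 alone was lower again. Deeper cells show such a UMI more readily, so that filter also selects by depth. What part stress RNA has in these ratios was not tested. Over all measured genes 15% were higher and 12.4% lower by the 1.5-fold rule relative to the median gene.

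**Figure D5:**
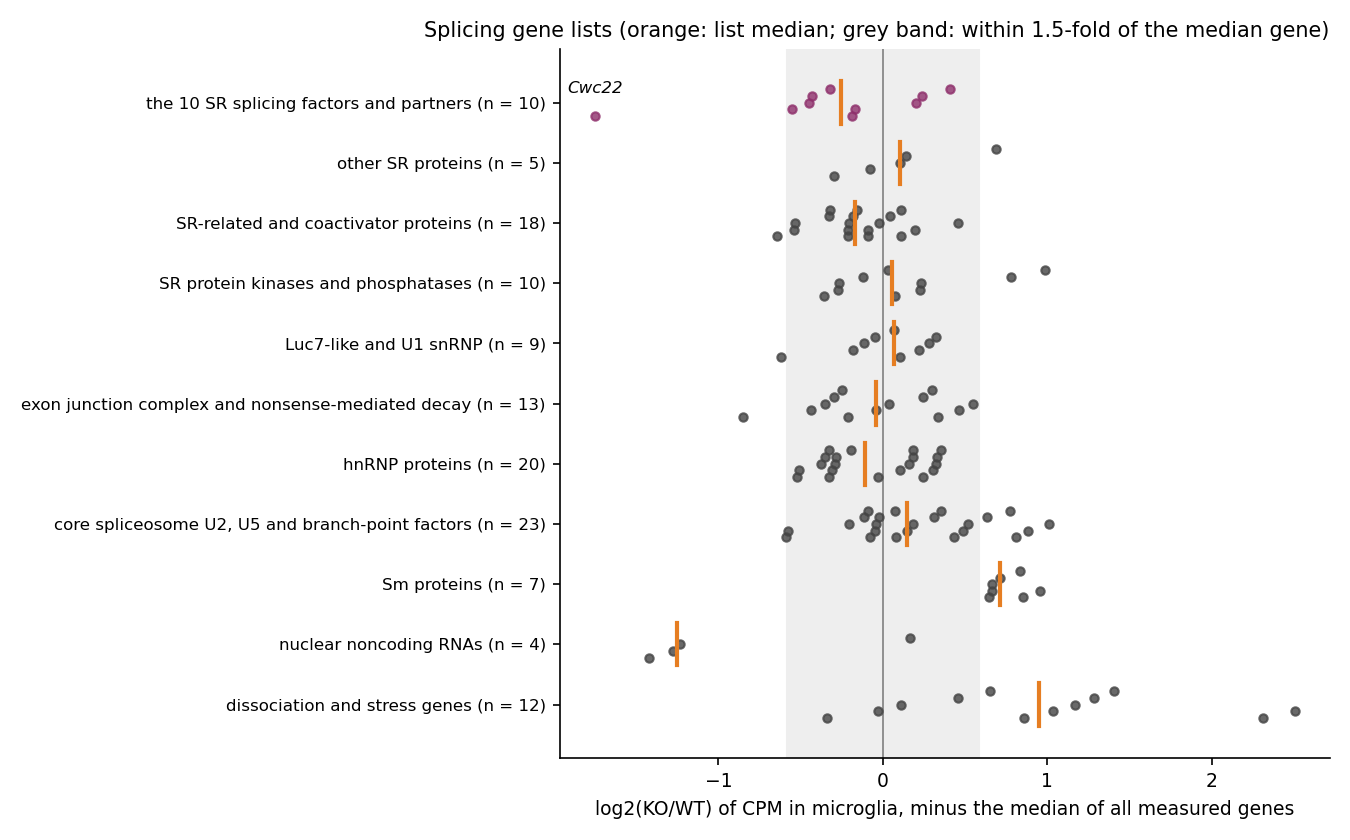
Log2 ratio of KO over WT CPM in microglia minus the median of all measured genes, 1 point per gene, for the 10 genes (purple, top row) and the 10 other lists, with the list median in orange and the band within 1.5-fold of the median gene in grey. Cwc22 stands alone at −1.75 in the top row, the 7 Sm genes all lie right of the band, and the nuclear noncoding RNAs lie left of it except for Malat1.

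Length of the gene went with the ratio across the transcriptome. With measured genes in 5 equal groups by genomic span, the median log2 ratio relative to the median gene was 0.38 in the shortest group, then 0.24, 0.06 and −0.15, and −0.36 in the longest. Srsf2, Srsf6 and Srsf7 belong to the shortest group, where 14.4% of genes were at least 1.5-fold lower, and Srsf6 at −0.45 lies well under its median. Srsf3, Srsf5 and Clk1 belong to the next, where 4.48% were lower. Cwc22 and Luc7l2 belong to the fourth group, with a median of −0.15 and 12.2% lower. Whether length has a part in the ratios of the 10 was not tested.

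Profiles were taken over 14 sums, those of monocytes, border macrophages and the 5 depth bins of microglia in each library, which share libraries and the free RNA of each. Luc7l2 followed the mean profile of the 10 genes most closely (r = 0.98 of log2(CPM + 1)) and Tra2b least (0.67), with Cwc22 at 0.78. That mean is over all 10 genes, the compared gene among them, which raises each of these r. Among 3756 other genes at 50 CPM or more, the 5 with the most similar profile were Tbc1d5 (0.99), the splicing factor gene Rbm25 (0.99), the hnRNP gene Syncrip (0.98), Gm44667 (0.98) and Pcmtd1 (0.98).

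Some counts could mix genes. Srsf2 lies wholly inside Mettl23 on the opposite strand, Srsf3 inside the long noncoding RNA gene Trp53cor1 and part of Srsf5 inside Slc10a1, also on the opposite strand, and Cwc22 shares 309 bases with Gm13727 on its own strand. Whether the counting used strand is not given in the sources used here. Near-identical copies elsewhere held few UMIs in microglia. They came to 0.264% in KO and 0.324% in WT microglia of those of Srsf3, 0.0476% and 0.185% of those of Srsf5, 0.0392% and 0.0460% of those of Tra2b, and 0.0246% and 0.0284% of those of Luc7l2.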

How the data were processed

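The deposited values are raw UMI counts for each gene in each barcode. They come from Cell Ranger, version 7.0.0 per the file headers but 6.0 per the labels' protocols, on GRCm39 per the labels' protocols. Whether intronic or antisense reads entered is not given in the sources used here. Barcodes below the authors' limit of 500 genes, per the labels' protocols, were still in the deposited counts and were removed here, as were cells above 10% mitochondrially encoded UMIs. Of the 55357 genes, 54749 (98.9%) matched GENCODE M39 by identifier.

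Counts were summed per library over gated cells and divided by their total (CPM). Genes that reached 10 CPM in either library were taken as measured, and 1.5-fold was the rule of size. Cells that met several gates, 1232 KO and 303 WT cells, were left out and no doublet caller was run. With 1 library per genotype no test was made. The log2 ratio relative to the median gene, its interval and the 1.5-fold rule were tested on simulated counts. Thinning was checked on cells of the WT library, and the other steps were not tested in this way. Near copies were found with BLAST+ 2.17.0, at 90% identity or more over at least 400 bases.

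The 10 genes, the gene lists and the gates were chosen with earlier results of these data known. Besides the 10 genes and Msn, the text names in each list the 2 highest and 2 lowest genes or some of them, and the 5 most similar profiles. Agps, Fkbp7, Plekha3, Ube2e3, the genes that overlap the 10 and the 7 immediate early genes were chosen after their values were seen.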

Additional observations from a re-analysis of the deposited data

Results flagged for a closer look

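Clk1 differed in direction between classes, with intervals that lay on opposite sides of 0. Its log2 ratio of KO over WT was 0.95 (0.24 to 1.74) in border macrophages and −0.46 (−0.49 to −0.44) in microglia, on the CPM scale. The difference between the classes was not tested, and the WT border macrophage value rests on 18 UMIs in 18 cells.

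Barcodes under 500 genes, which lie outside the gated cells, held RNA of Tra2b, Srsf7, Clk1, Tra2a and Srsf2 at a higher level in the KO library than in the WT library, with intervals above 0. There were 1463 such barcodes in the KO and 207 in the WT library, each set with a median of 628 UMIs. The log2 ratio was 0.74 for Tra2b (2455 CPM in KO and 1468 CPM in WT barcodes), 0.73 for Srsf7 (794 and 480 CPM), 0.59 for Clk1 (1533 and 1018 CPM), 0.54 for Tra2a (935 and 642 CPM) and 0.47 for Srsf2 (480 and 347 CPM). Of the 10 genes, 3 were at least 1.5-fold higher, beside 23.5% of measured genes, and 1 lower, beside 31.2%. Srsf5 (−0.40, −0.64 to −0.16) and Cwc22 had intervals below 0, Cwc22 at 146 CPM in KO and 701 CPM in WT barcodes (−2.26, −2.64 to −1.88).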

How the results depend on the processing

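Cwc22 was at least 1.5-fold lower in KO microglia, relative to the median gene, under the main settings and all 11 alternatives, with log2 ratios between −2.07 and −1.62, and each of the other 9 genes kept its sign in all 11. The count of lower genes on that scale was 1 and became 2, with Srsf5 added, without cells of 16000 or more UMIs, without cells with a marker of another cell type, with the centre on genes at 30 CPM, with cells thinned to 2000 UMIs and with depth bins weighted equally. The median of the 10, −0.25, was −0.29 without cells of 16000 or more UMIs, −0.32 without cells with an Hspa1a or Hspa1b UMI, −0.33 with the centre at 30 CPM, −0.13 with the centre on all genes with a UMI in each library, −0.29 with thinned cells and −0.21 with bins weighted equally. In border macrophages without any P2ry12 or Tmem119 UMI (35 KO and 8 WT cells), the 3 lower genes became 1, with Tra2a (−0.20) and Srsf5 (−0.34) lost. Srsf2 (1.27) and Tra2b (0.78) were then at least 1.5-fold higher beside Clk1, and Srsf6 had no UMI in the WT cells. In every depth bin, 3 genes were lower on the CPM scale and 1 when centred. The cause of these moves was not tested. On the CPM scale the microglial count stayed between 4 and 5 and the monocyte count between 3 and 5. The count of lower shares was between 7 and 10. That range includes shares without thinning, where all 10 were lower and KO microglia were shallower (median 5581 UMIs against 7212.5 in WT). How many of all measured genes were called under these alternatives was not counted. The filter on markers of other cells kept 711 KO and 530 WT microglia, as UMIs of its markers Slc1a3 and Ighm were seen in most cells gated as microglia. The alternative at one depth for immediate early genes was chosen after seeing the data. No paired analysis was possible because each genotype has 1 library. The 18 WT border macrophages and 42 WT monocytes limit the precision of those classes.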
